A study of Mus musculus with 35 samples.

Results

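Mouse tracheas taken 14 days after transplantation into MHC-compatible recipients (day 14 isografts, 5 arrays) were compared with untransplanted tracheas (native, 5 arrays). The compared features were all non-control probe sets with a log2 value of 5 or more on at least 5 of these 10 arrays, which gave 12108 of the 22626 non-control probe sets. Of the 12393 genes named on the array, 7531 had their brightest probe set among these and were tested. The choice used the level on these arrays but neither group, so a gene found at measurable level in only 1 group could enter. The series holds 35 Affymetrix arrays of tracheal RNA in 7 groups of 5: the native tracheas, and grafts in MHC-compatible or MHC-incompatible recipients 4, 14 or 25 days after transplantation. The isografts of day 4 and day 25 are used below to place the day 14 values in time. Donor and recipient match at the MHC, so the comparison holds no MHC mismatch. Transplantation cannot be told apart in it from any difference in attached tissue, handling or hour of sampling. The labels used here give neither strain, sex nor age, and they do not say that the 5 arrays of a group were separate animals. The p-values therefore measure the spread between arrays, which may in part be technical.

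The trachea is lined by a pseudostratified epithelium of basal, secretory and ciliated cells, rests on cartilage rings and a band of smooth muscle, and carries submucosal glands that secrete mucins and antimicrobial proteins. A heterotopic graft is cut off from its blood supply and nerves. Its epithelium is then injured and regrows from basal and other progenitor cells, while leukocytes enter and the connective tissue is remodelled.

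All values are the deposited log2 signals. The medians of the 10 arrays ran from 5.07 to 5.3. A difference is day 14 isograft minus native on the log2 scale with its standard error, and calls were made at an adjusted p under 0.05 from limma, by the Benjamini-Hochberg method. Values of about 2 to 4 lie near background, so folds against them depend on the authors' background model. The secretory genes Bpifa1 (14.46 to 14.81 in day 14 isografts and 14.51 to 15.04 in native tracheas) and Scgb3a1 (13.21 to 13.69 in day 14 isografts and 13.22 to 13.82 in native tracheas), the cartilage collagen Col2a1 (10.1 to 12.38 in day 14 isografts and 9.56 to 12 in native tracheas) and the smooth muscle actin Acta2 (10.29 to 11.06 in day 14 isografts and 11.22 to 12.19 in native tracheas) were high on all 10 arrays. The samples also held neighbouring tissue. Thyroglobulin, Tg, read 9.26 to 14.22 in day 14 isografts and 14.36 to 14.68 in native tracheas. Parathyroid hormone, Pth, read 10.38 to 12.63 in day 14 isografts and 12.41 to 13.12 in native tracheas. The skeletal muscle actin Acta1 read 5.05 to 11.07 in day 14 isografts and 10.1 to 13.44 in native tracheas. Loricrin, Lor, a protein of cornified epidermis, read 3.18 to 9.49 in day 14 isografts and 2.48 to 3.09 in native replicates 1 to 4, but 11.94 in native replicate 5. That array had the lowest median correlation with its own group (0.901, against 0.922 to 0.942 for the other native arrays) and the highest skeletal muscle signal. In whole tissue, fewer cells of a type and less RNA per cell cannot be told apart.

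Of the 12108 probe sets, 3534 were called, 1337 higher and 2197 lower in day 14 isografts. Among the 7531 genes, each represented by its brightest probe set, 2181 were called (29.0%), 831 higher (11.0%) and 1350 lower (17.9%). Of the called genes, 400 rose and 513 fell by at least 2-fold. In 1055 called genes the isograft and native arrays did not overlap, 445 of them higher and 610 lower. The median difference over all genes was -0.12. The balance of directions depended on scaling: 37.8% of called probe sets were higher with the deposited values, 53.2% after repeated quantile normalization, 58.5% after centring each array on its median and 46.9% after centring on reference genes. These scalings moved the median difference up by 0.148, 0.163 and 0.096, and without the level filter 56.4% of called probe sets were higher. The gene groups described below are to be read against the shares of all genes. The chart of called genes by gene list shows them side by side.

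**Figure D1:**
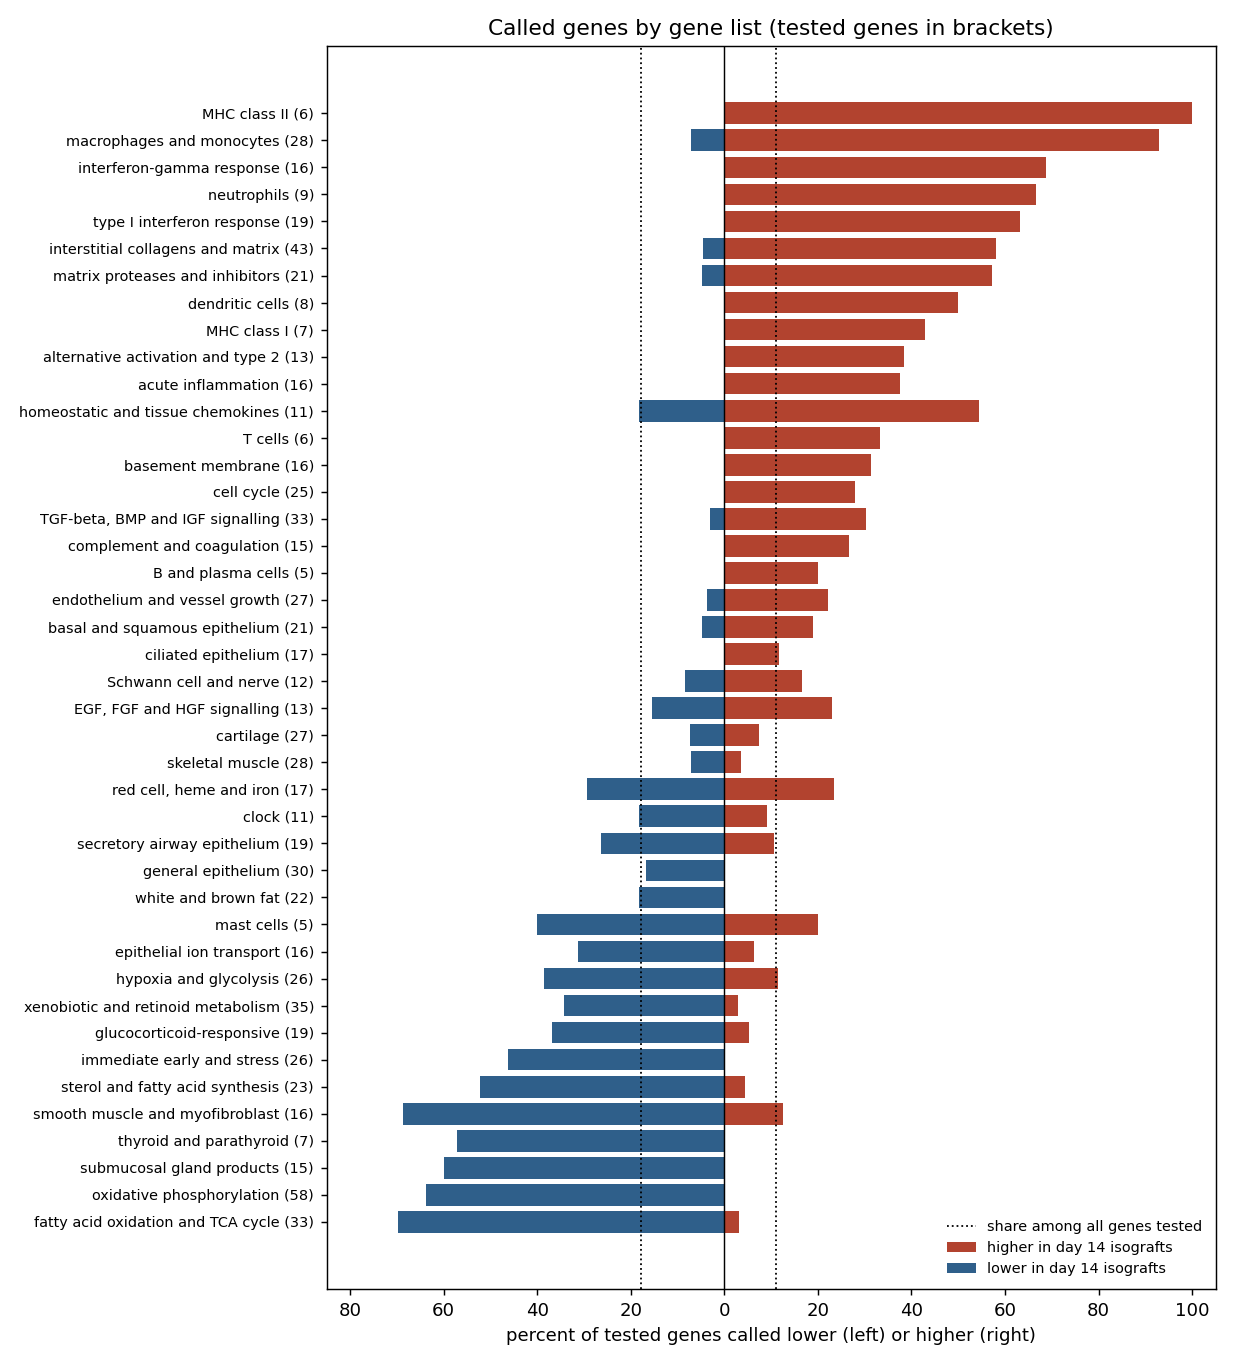
Percent of tested genes of each list with at least 5 tested genes (sex-linked and scaling reference genes left out) that were called higher (red, right) or lower (blue, left) in day 14 isografts than in native trachea, by limma at adjusted p under 0.05. Dotted lines mark the shares among all 7531 genes, 11.0% higher and 17.9% lower. The macrophage and MHC class II lists reach far to the right, and the fatty acid oxidation, smooth muscle, oxidative phosphorylation and gland lists reach far to the left.

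The products of the glands were among the largest falls in the comparison. Of 24 submucosal gland genes on the array 15 were tested, and 9 were lower and none higher, with a median difference of -1.18 against -0.12 over all genes. Dcpp1, a secreted demilune cell and parotid protein, had 7.52, 7.99, 6.27, 5.82 and 6.03 in day 14 isografts, against 13.5, 13.65, 13.67, 14.3 and 14.48 in native tracheas. The lowest native array stood more than 5 log2 units above the highest isograft array. The difference was -7.2 ± 0.49, adjusted p = 2.25e-12, a signal 147-fold lower. Its close relative Dcpp3 had 3.91, 4.33, 3.19, 3.02 and 3.04 in day 14 isografts, against 7.64, 8.99, 9.28, 9.87 and 10.63 in native tracheas, and it fell by 5.79 ± 0.44 on the log2 scale (adjusted p = 3.98e-11). The RefSeq promoters of these genes, 250 bases before to 50 bases after the start, show how alike the copies are. Both lie on the plus strand of chromosome 17 in build GRCm38.p6, Dcpp1 at chr17:23880626-23880925 and Dcpp3 at chr17:23917208-23917507:
Dcpp1: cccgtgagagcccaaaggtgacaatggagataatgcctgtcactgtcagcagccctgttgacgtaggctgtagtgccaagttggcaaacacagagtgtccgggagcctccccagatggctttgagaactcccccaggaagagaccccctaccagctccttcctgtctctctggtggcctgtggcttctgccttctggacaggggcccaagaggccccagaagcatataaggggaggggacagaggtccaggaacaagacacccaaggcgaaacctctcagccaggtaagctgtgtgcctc
Dcpp3: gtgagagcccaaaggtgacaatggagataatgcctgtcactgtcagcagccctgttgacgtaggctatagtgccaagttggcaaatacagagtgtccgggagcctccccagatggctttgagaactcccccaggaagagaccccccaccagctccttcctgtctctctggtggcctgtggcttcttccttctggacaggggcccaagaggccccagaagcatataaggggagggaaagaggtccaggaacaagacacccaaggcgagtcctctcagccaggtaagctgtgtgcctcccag
A local alignment paired 296 bases, of which 289 (97.6%) were identical, with 1 gap base. Probe sets for such near-identical copies may not tell their transcripts apart, so the split of the signal between Dcpp1 and Dcpp3 is uncertain.

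Other genes fell strongly as well, by less than the Dcpp genes. Wfdc18, Lipf, Sftpa1 and Slc6a15 were named for the size of their fall, and Sftpa1 was not in the gland list. Tff2, a trefoil peptide secreted with mucin, had 7.89, 6.5, 5.5, 5.93 and 5.92 in day 14 isografts, against 11.83, 11.04, 11.05, 12.53 and 10.34 in native tracheas. No isograft array reached the native range (difference -5.01 ± 0.32, adjusted p = 4.78e-13). Wfdc18, a secreted protein of the whey acidic protein family, read 7.21 to 8.34 in day 14 isografts and 10.33 to 11.8 in native tracheas, a fall of 3.6 ± 0.38 on the log2 scale (adjusted p = 3.46e-08). Lipf, the gastric-type lipase, had 10.26, 8.33, 7.64, 6.81 and 8.97 in day 14 isografts, against 13.07, 13.25, 13.2, 13.17 and 13.75 in native tracheas. Its isograft arrays were widely spread and all lay below the native ones (difference -4.88 ± 0.44, adjusted p = 1.27e-09). Sftpa1, the lung collectin surfactant protein A, had 2.54, 2.62, 2.32, 2.17 and 2.2 in day 14 isografts, against 8.02, 9.05, 8.8, 7.79 and 6.21 in native tracheas. It was at background on every isograft array, and its adjusted p of 5.66e-16 was the smallest in the comparison (difference -5.6). Slc6a15, a neutral amino acid transporter, read 3.19 to 4.2 in day 14 isografts and 5.51 to 7.78 in native tracheas (difference -3.55 ± 0.29, adjusted p = 1.11e-10).

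The main secretory proteins of the surface epithelium were not called. Bpifa1, a secreted airway defence protein, had 14.67, 14.49, 14.46, 14.81 and 14.63 in day 14 isografts, against 14.74, 14.97, 14.51, 15.04 and 14.94 in native tracheas. The groups overlapped, and the difference of -0.23 ± 0.43 was not called (adjusted p = 0.712). The secretoglobins Scgb3a1 (difference -0.16 ± 0.5, adjusted p = 0.837) and Scgb3a2 (difference 0.13 ± 0.56, adjusted p = 0.879) overlapped between groups as well. Scgb1a1, the club cell secretoglobin, had 13.18, 13.8, 13.18, 13.76 and 14.11 in day 14 isografts, against 14.43, 14.48, 14.36, 14.53 and 14.41 in native tracheas. All 5 isograft arrays were below all 5 native arrays, but with the spread estimated from all 35 arrays the difference of -0.84 ± 0.53 was not called (adjusted p = 0.231); the 10 arrays alone did call it. These signals are near the top of the array's range, whose highest value was 15.53, and whether that compressed the differences was not tested. Cyp2f2, a club cell cytochrome P450, read 12.65 to 13.3 in day 14 isografts and 13.28 to 13.78 in native tracheas (adjusted p = 0.611). Pigr, the receptor that carries IgA across the epithelium, read 9.64 to 11.33 in day 14 isografts and 10.4 to 11.44 in native tracheas (adjusted p = 0.823). The other tested probe set of Pigr was lower in the isografts, with a difference of -1.59.

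Over the secretory list 5 of 19 tested genes were lower and 2 higher. The gel-forming mucin Muc5b, made by glands and surface cells, had 9.23, 8.67, 9.29, 10.61 and 10.34 in day 14 isografts, against 11.82, 11.33, 11.6, 11.37 and 11.62 in native tracheas (difference -1.92 ± 0.56, adjusted p = 0.0109). Dmbt1, a secreted scavenger receptor protein that binds bacteria, averaged 11 ± 0.66 in day 14 isografts and 13.02 ± 0.19 in native tracheas (SD, n = 5 each). It was 4.06-fold lower with no overlap (adjusted p = 0.00321). Agr2, an endoplasmic reticulum protein needed for mucin production, was 2.8-fold lower (adjusted p = 0.016), though its other tested probe set differed by 0.38 in the opposite direction. Lysozyme Lyz1, which has the near-identical copy Lyz2, read 13.33 to 13.9 in day 14 isografts and 14.21 to 14.37 in native tracheas, a small fall of 0.55 ± 0.16 (adjusted p = 0.0105) that was not called under any of the other 3 scalings. Lactoferrin, Ltf, read 13.44 to 13.72 in day 14 isografts and 14.06 to 14.2 in native tracheas without overlap, and its difference of -0.57 ± 0.53 was not called (adjusted p = 0.428); the 10 arrays alone did call it. The 2 risers were Chil4, a chitinase-like protein with near-identical relatives, and Lcn2, a siderophore-binding lipocalin made by stressed epithelium and by neutrophils. Chil4 had 6.64, 9.73, 9.46, 10.68 and 6.12 in day 14 isografts, against 4.62, 4.7, 4.23, 4.75 and 5.45 in native tracheas (13.7-fold higher, adjusted p = 0.00908). Lcn2 had 5.85, 8.83, 8.52, 9.5 and 8.78 in day 14 isografts, against 6.41, 7.17, 5.87, 5.45 and 4.04 in native tracheas. Isograft replicate 1 lay inside the native range for Lcn2, and the other 4 lay above it (difference 2.5 ± 0.6, adjusted p = 0.00278).

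**Figure D2:**
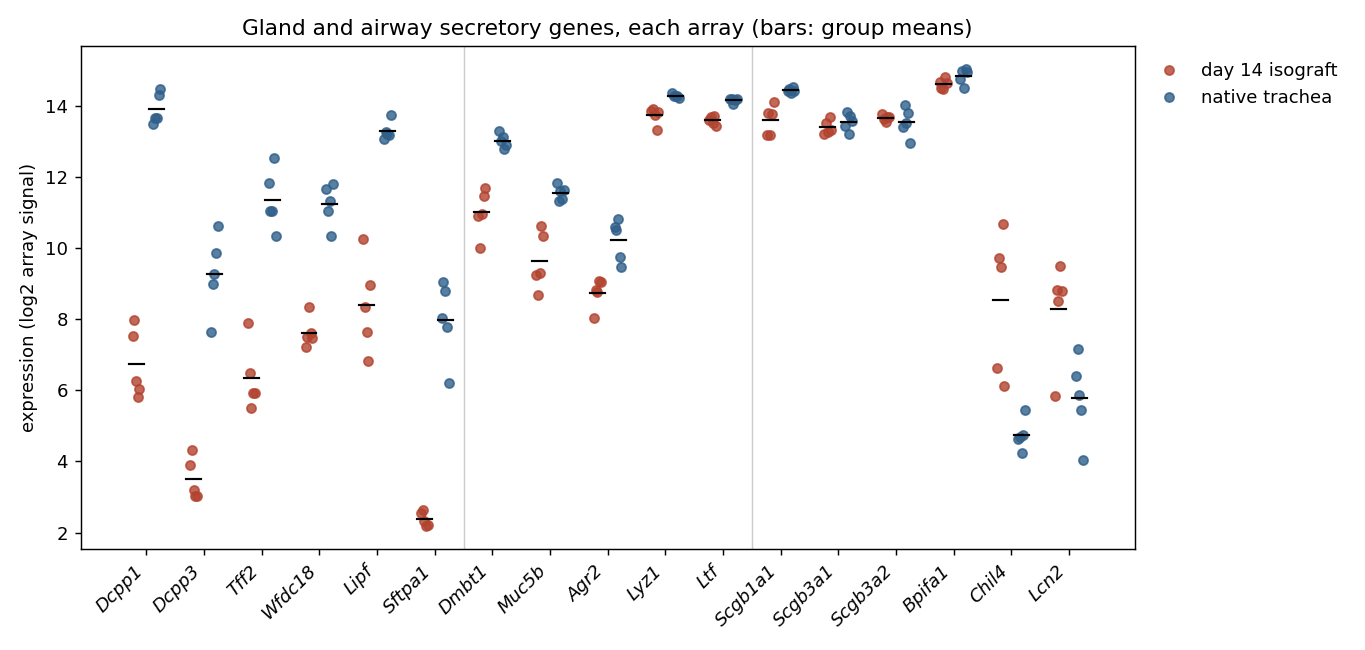
Log2 array signal of gland and secretory genes on each of the 5 day 14 isograft arrays (red, left) and 5 native arrays (blue, right); bars are group means. Dcpp1, Dcpp3, Tff2, Wfdc18, Lipf and Sftpa1 are separated by several log2 units, while Scgb3a1, Scgb3a2 and Bpifa1 overlap.

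Genes of ciliated cells were near their native level. Of 17 tested ciliated genes none was lower (1 without native replicate 5) and 2 were higher, with a median difference of 0.16. Foxj1, the master transcription factor of motile cilia, had 6.54, 7.54, 7.08, 7.61 and 7.72 in day 14 isografts, against 9.14, 7.94, 7.89, 7.06 and 5.06 in native tracheas. The groups overlapped fully (difference -0.12 ± 0.45, adjusted p = 0.86). Without native replicate 5, the lowest array at 5.06, the difference was -0.71 and still not called. Tekt1, a ciliary microtubule protein, read 5.14 to 6.78 in day 14 isografts and 4.97 to 6.56 in native tracheas (adjusted p = 0.893). The genes called higher were Rsph1, a radial spoke protein, and Meig1, known from spermatogenesis in mice. Rsph1 had 6.16, 7.6, 8.55, 8.54 and 8.14 in day 14 isografts, against 6.77, 6.92, 7.06, 6.63 and 4.62 in native tracheas. Isograft replicates 2 to 5 lay above all native arrays, and native replicate 5 was far below its group (difference 1.4 ± 0.41, adjusted p = 0.0116). Meig1 rose by 1.24 ± 0.37 (adjusted p = 0.0134), but without isograft replicate 5 it was no longer called (adjusted p = 0.0618). With the 10 arrays alone Rsph1 was not called.

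Of the general epithelial genes 5 of 30 were lower and none higher, near the 17.9% of all genes. Epcam, the epithelial adhesion molecule, read 8.83 to 9.74 in day 14 isografts and 9.12 to 11.52 in native tracheas (difference -0.91 ± 0.47, adjusted p = 0.138), and keratin Krt8 read 7.84 to 9.11 in day 14 isografts and 8.41 to 10.02 in native tracheas (difference -0.58 ± 0.38, adjusted p = 0.247). Prss8, the prostasin protease that activates the epithelial sodium channel, was 3.63-fold lower (adjusted p = 0.000466), with isograft replicate 4 at 6.95 inside the native range. Without native replicate 5, which was low for several epithelial genes, 8 of the 30 were called lower.

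The list of basal and squamous genes leaned the other way, with 4 of 21 higher and 1 lower, against 11.0% and 17.9% of all genes. Its median difference was 0.52. The basal keratins Krt5 (difference -0.13 ± 0.59, adjusted p = 0.88) and Krt14 (difference 1.33 ± 0.77, adjusted p = 0.192) and the basal transcription factor Trp63 (difference 0.52 ± 0.33, adjusted p = 0.231) were not called. With array weights Krt14 was called, and without native replicate 5 its difference was 1.93 ± 0.77 (adjusted p = 0.0521). For Krt14 the isografts had 7.69, 9.24, 9, 9.57 and 8.07, against 7.77, 6.83, 6.79, 5.76 and 9.77 in native tracheas. Native replicate 5, the array with loricrin, thus held the highest Krt14 value of the 10, and how far skin contributed to it was not tested. Snai2, a repressor of epithelial adhesion genes found in basal and mesenchymal cells, had 7.28, 7.03, 6.4, 6.66 and 7.17 in day 14 isografts, against 5, 5.47, 5.38, 5.62 and 6.34 in native tracheas and did not overlap (difference 1.35 ± 0.23, adjusted p = 6.14e-05). Gja1, the gap junction protein connexin 43, rose by 1.57 ± 0.42 (adjusted p = 0.00626), with native replicate 5 again the exception at 11.44. Without that array the difference was 2.15 ± 0.33 (adjusted p = 1.9e-05). Averaged over its probe sets Gja1 was not called.

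Genes of ion transport and of xenobiotic metabolism leaned lower. Of 16 tested ion transport genes 5 fell and 1 rose. Kcnk1, a potassium leak channel, had 7.54, 7.49, 6.4, 7.68 and 6.43 in day 14 isografts, against 10.32, 9.56, 10.46, 9.85 and 8.86 in native tracheas (difference -2.7 ± 0.34, adjusted p = 5.48e-07). Scnn1b, the beta subunit of the epithelial sodium channel, read 3.87 to 4.71 in day 14 isografts and 5.15 to 6.02 in native tracheas without overlap (difference -1.32 ± 0.2, adjusted p = 2.08e-05). Slc5a8, a sodium-coupled monocarboxylate transporter, was 3.94-fold lower (adjusted p = 0.00047) with overlap through native replicate 5. The riser was the amino acid transporter Slc6a14, at 5.83 to 9.37 in day 14 isografts and 4.63 to 5.62 in native tracheas (difference 1.68 ± 0.44, adjusted p = 0.0051). Its isograft replicate 2 stood at 9.37, and the other isograft arrays were at 5.83 to 6.46. With the 10 arrays alone it was not called. Cftr, the chloride channel mutated in cystic fibrosis, was below the level filter and read 3.98 to 5.73 in day 14 isografts and 2.99 to 4.36 in native tracheas.

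Of 35 xenobiotic and retinoid genes 12 fell and 1 rose, with a median difference of -0.69. Gsta3, a glutathione transferase, had 7.97, 7.18, 7.73, 7.23 and 7.19 in day 14 isografts, against 10.07, 10.25, 9.84, 9.89 and 7.51 in native tracheas. Native replicate 5 alone lay among the isografts (difference -2.05 ± 0.4, adjusted p = 0.000395). Cyp4b1, an airway cytochrome P450, was 3.79-fold lower (adjusted p = 0.000445), and Retsat, a retinol saturase, 4.13-fold lower (adjusted p = 0.0122). Outside the lists, the fatty acid omega-hydroxylase Cyp4a12a had 4.03, 4.4, 4.57, 3.5 and 6.1 in day 14 isografts, against 7.82, 8.71, 8.22, 8.03 and 7.52 in native tracheas, a fall of 11.6-fold with no overlap (adjusted p = 4.81e-07). Aldh1a1, a retinal dehydrogenase, overlapped the native range (11.7 to 12.78 in day 14 isografts and 12.04 to 12.92 in native tracheas; adjusted p = 0.556). The riser was Cyp1b1, a P450 also found in stromal cells, at 7.64 to 9.06 in day 14 isografts and 5.31 to 6.65 in native tracheas (difference 2.33 ± 0.34, adjusted p = 1.15e-05). The other 2 probe sets of Cyp1b1, below the filter, differed by 0.01 and 1.18.

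Nearly all tested macrophage genes rose. Of 33 macrophage and monocyte genes on the array 28 were tested. Of these 26 were higher and 2 lower, against 11.0% and 17.9% of all genes. In 25 of the 28 the groups did not overlap, against 1150 of all 7531 genes. The median difference was 2.11 over the tested genes and 1.95 over all 33. The mean level of the list ran from 8.87 to 9.22 in day 14 isografts and from 6.66 to 7.23 in native tracheas. Clec7a, the beta-glucan receptor dectin-1, had 7.8, 8.5, 7.93, 7.79 and 8.52 in day 14 isografts, against 3.68, 3.62, 4.76, 4.16 and 3.87 in native tracheas (difference 4.09 ± 0.37, adjusted p = 2.02e-09). Clec7a passed the filter only through the isografts. Gpnmb, a lysosomal glycoprotein of phagocytes, had 9.23, 8.7, 9.07, 9.06 and 8.59 in day 14 isografts, against 5.14, 5.53, 4.91, 4.39 and 4.6 in native tracheas (difference 4.02 ± 0.38, adjusted p = 3.1e-09). Ctss, the lysosomal protease cathepsin S that processes the MHC class II invariant chain, had 12.68, 12.54, 12.57, 12.17 and 12.63 in day 14 isografts, against 8.62, 9.01, 9.07, 8.16 and 8.85 in native tracheas. The isograft arrays lay close together and far above the native ones (difference 3.78 ± 0.22, adjusted p = 2.8e-14). Cd68, a lysosomal marker of macrophages, averaged 8.8 ± 0.35 in day 14 isografts and 5.05 ± 0.82 in native tracheas (SD, n = 5 each; 13.4-fold higher, adjusted p = 1.25e-09). C1qa, a subunit of complement C1q made by tissue macrophages, rose 3.44-fold (adjusted p = 0.000172), and Mrc1, the mannose receptor, 3.26-fold (adjusted p = 3.29e-05). Ly86, a partner of the receptor RP105 on myeloid and B cells, rose 15.4-fold (adjusted p = 9.57e-09).

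The genes of the list that fell were lysozyme Lyz2 and the endotoxin co-receptor Cd14. Lyz2, also made by gland cells and near-identical to Lyz1, read 12.32 to 13.43 in day 14 isografts and 13.75 to 14.32 in native tracheas (difference -1.01 ± 0.21, adjusted p = 0.000822). Cd14 fell by 0.86 ± 0.33 (adjusted p = 0.0461). That call was lost when any of isograft replicates 1, 2, 3 or 5 or native replicates 1, 2 or 3 was left out, with adjusted p up to 0.132, and under each of the other 3 scalings and with the 10 arrays alone.

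Myeloid and matrix-degrading genes were also among the largest rises of the comparison. Mmp12, the macrophage metalloelastase, had 9.58, 8.58, 8.77, 8.42 and 9.69 in day 14 isografts, against 2.56, 2.84, 3.3, 2.95 and 3.88 in native tracheas. It was at background in native tracheas and was the largest rise of all genes tested without overlap, 59.9-fold (difference 5.9 ± 0.45, adjusted p = 3.25e-11). Mmp12, too, passed the filter only through the isografts. The RefSeq promoters of Mmp12 and Ctss are shown with the short words of factor families known from macrophages. They are the AP-1 word TGANTCA, where N is any base, and the ETS word GAGGAAGT, a form of the word that PU.1 binds. Each was searched on both strands. Capitals mark the AP-1 word in Mmp12 (chr9:7347124-7347423, plus strand, the later of its listed starts) and the ETS word in Ctss (chr3:95526536-95526835, plus strand), build GRCm38.p6:
Mmp12: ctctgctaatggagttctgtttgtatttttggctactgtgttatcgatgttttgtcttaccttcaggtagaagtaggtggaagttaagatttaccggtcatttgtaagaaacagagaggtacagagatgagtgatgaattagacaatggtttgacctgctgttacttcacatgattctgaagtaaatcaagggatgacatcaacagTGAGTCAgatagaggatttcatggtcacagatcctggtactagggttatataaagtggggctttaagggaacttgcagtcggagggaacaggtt
Ctss: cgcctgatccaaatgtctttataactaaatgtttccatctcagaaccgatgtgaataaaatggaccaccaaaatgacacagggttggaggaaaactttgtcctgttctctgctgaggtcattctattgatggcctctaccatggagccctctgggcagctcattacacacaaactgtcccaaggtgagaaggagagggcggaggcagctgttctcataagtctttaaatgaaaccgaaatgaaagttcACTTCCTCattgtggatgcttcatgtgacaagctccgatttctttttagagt
Among 27025 genes with a promoter in the table, 8.97% held the AP-1 word and 3.69% the ETS word. Of the 26 macrophage genes that rose 19 had a promoter there. The AP-1 word was found in 4 of these (21.1%) and the ETS word in 3 (15.8%). A gene counted if any of its listed starts held the word. The other listed start of Mmp12 (chr9:7344147-7344446) held no AP-1 word and 1 ETS word. These are matches of letters in a short window and say nothing of binding.

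Slfn4, a Schlafen family gene of myeloid cells, had 7.28, 9.24, 7.92, 7.74 and 8.6 in day 14 isografts, against 2.66, 3.36, 2.78, 2.76 and 3.29 in native tracheas (36.3-fold higher, adjusted p = 2.1e-08). Neutrophil genes rose in 6 of 9 tested members, with 6 of 15 on the array below the filter. Slfn4, and in this list S100a8 and Clec4d, were under log2 5 on every native array and passed the filter only through the isografts. The count of neutrophil risers therefore supports nothing by itself. The median difference was 2.51 over the tested genes and 0.76 over all 15. The calprotectin subunits had the largest neutrophil rises. S100a8 had 6.63, 11.26, 8.5, 8.2 and 8.99 in day 14 isografts, against 3.86, 4.79, 3.46, 3.88 and 3.5 in native tracheas, and S100a9 had 7.63, 10.93, 9.5, 9.24 and 8.49 in day 14 isografts, against 4.46, 6.11, 4.51, 4.83 and 5.73 in native tracheas. Both genes were lowest in isograft replicate 1 and highest in replicate 2, yet neither overlapped with the native arrays (S100a8 difference 4.82 ± 0.66, adjusted p = 3.15e-06; S100a9 difference 4.03 ± 0.62, adjusted p = 1.82e-05). Clec4d, a C-type lectin of myeloid cells, rose 11-fold (adjusted p = 1.82e-06).

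Of 17 dendritic cell genes on the array 9 were below the filter. Of the 8 tested 4 were higher and none lower. The median difference was 0.99 over the tested genes and 0.34 over all 17. Itgax, the integrin CD11c, had 7.66, 7.32, 7.73, 7.86 and 7.84 in day 14 isografts, against 2.79, 3.42, 3.9, 3.76 and 2.74 in native tracheas (difference 4.36 ± 0.38, adjusted p = 6.81e-10). It passed the filter only through the isografts. Fscn1, an actin-bundling protein of mature dendritic cells and of stroma, was 5.72-fold higher (adjusted p = 4.67e-09). Chemokines split, with 6 of 11 higher and 2 lower. The median difference was 1.12 over these 11 and 0.24 over all 17 on the array. Ccl8, a monocyte attractant, had 10.98, 10.61, 10.02, 11.34 and 9.45 in day 14 isografts, against 6.17, 6.45, 6.25, 4.97 and 5.04 in native tracheas (26.1-fold higher, adjusted p = 2.64e-08). Ccl6 rose by 2.56 ± 0.31 and Cxcl12, which retains leukocytes in tissues, by 1.71 ± 0.25 (adjusted p = 4.05e-07 and 9.36e-06). Acute inflammation genes rose in 6 of 16, among them the cytokine Il1b (5.76-fold, adjusted p = 0.000558) and the acute phase protein Saa3 (7.09-fold, adjusted p = 0.00679). Complement and coagulation genes rose in 4 of 15, in 2 without native replicate 5 and in 7 under each of the other scalings. Of 13 genes of alternative activation 5 rose. Arg1, arginase 1, had 5.05, 10.17, 8.95, 9.37 and 7.16 in day 14 isografts, against 3.4, 2.49, 3.81, 3.36 and 5.4 in native tracheas. It ranged over 5 log2 units in the isografts, and its replicate 1 lay below the highest native array (difference 4.45 ± 0.95, adjusted p = 0.000948).

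**Figure D3:**
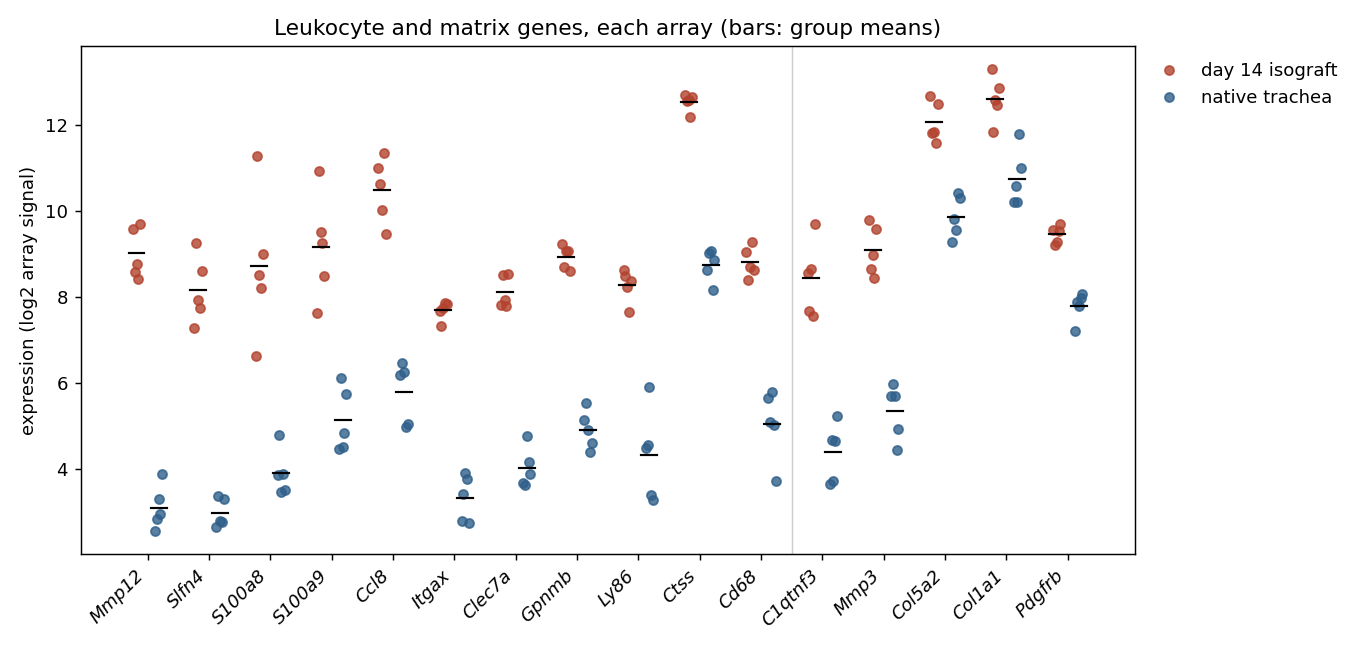
Log2 array signal of leukocyte genes (left of the line) and matrix genes (right of it) on each day 14 isograft array (red, left) and native array (blue, right); bars are group means. In all 16 genes the isograft arrays lie above the native arrays; S100a8 and S100a9 are the most spread among isografts.

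Interferon-regulated genes rose without any called lower. The interferon-gamma list had 11 of 16 higher (median difference 1.02), and the type I interferon list 12 of 19 (median 0.96). Over all members on the array, 24 in each list, the medians were 0.84 and 0.92. Without native replicate 5 the counts were 10 and 8. Iigp1, an interferon-inducible GTPase, had 9.45, 9.72, 8.22, 8.41 and 8.98 in day 14 isografts, against 7.66, 7.49, 7.44, 6.85 and 7.18 in native tracheas (difference 1.64 ± 0.34, adjusted p = 0.000731). Its relative Ifi47 read 7.83 to 8.46 in day 14 isografts and 5.88 to 6.99 in native tracheas (difference 1.68 ± 0.27, adjusted p = 4.26e-05). Irf8, a transcription factor of myeloid development, rose 3.77-fold (adjusted p = 0.000234). Ifit3, an antiviral effector, had 7.59, 6.5, 7.28, 6.16 and 7.03 in day 14 isografts, against 3.61, 3.82, 5.54, 5.92 and 3.88 in native tracheas. Native replicates 3 and 4 were near the isografts, without overlap (difference 2.36 ± 0.58, adjusted p = 0.00319). Irf7, which amplifies type I interferon, rose 3.8-fold (adjusted p = 0.000131), and Trim30a 4.32-fold (adjusted p = 3.28e-05). Cxcl9, a chemokine induced by interferon-gamma, stayed below the level filter and read 4.82 to 6.84 in day 14 isografts and 3.35 to 4.21 in native tracheas. All 6 tested MHC class II genes rose (5 without native replicate 5), with a median of 1.48. Another 3 of the 9 on the array were below the filter, and the median over all 9 was 1.3. H2-Aa read 9.72 to 10.77 in day 14 isografts and 7.91 to 9.8 in native tracheas (difference 1.3 ± 0.34, adjusted p = 0.00485), and Cd74, the class II invariant chain, 11.18 to 11.67 in day 14 isografts and 9.21 to 10.78 in native tracheas (difference 1.05 ± 0.24, adjusted p = 0.00215). MHC class I genes rose in 3 of 7, among them the peptide transporter Tap1 (2.75-fold, adjusted p = 0.000377). The macrophage list rose on the same isograft arrays, and its part in these changes was not tested.

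Several T cell markers were low in both groups. Of 20 T cell genes on the array 14 were below the filter. The T cell receptor component Cd3e read 3.87 to 4.75 in day 14 isografts and 4.42 to 5.08 in native tracheas, Cd8a 4.4 to 5.66 in day 14 isografts and 3.73 to 6.51 in native tracheas and granzyme Gzmb 3.56 to 4.51 in day 14 isografts and 3.68 to 3.97 in native tracheas. The T cell genes called higher, 2 of 6, included the interleukin 7 receptor Il7r (difference 2.48 ± 0.37, adjusted p = 1.27e-05). In the cytotoxic list 3 genes were tested of 19 and all 3 rose. A gene with most native arrays below log2 5 could pass the filter only through the isografts, so this count supports nothing by itself. The median difference was 1.51 over the 3 and 0.54 over all 19. Gzma, granzyme A, had 6.84, 6.66, 6.4, 6.71 and 5.64 in day 14 isografts, against 5.07, 4.54, 4.98, 4.58 and 5.54 in native tracheas (difference 1.51 ± 0.25, adjusted p = 4.34e-05). Ccl5, a chemokine of T cells, NK cells and macrophages, rose 4.69-fold (adjusted p = 7.17e-05). Ighm, the IgM heavy chain, ran from 5.74 to 7.67 in day 14 isografts and 4.32 to 8.82 in native tracheas and was not called (adjusted p = 0.837). The mast cell carboxypeptidase Cpa3 fell by 1.06 ± 0.26 (adjusted p = 0.00346).

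Matrix genes formed the other large rise. Of 43 interstitial collagen and matrix genes, all on the array above the filter, 25 were higher and 2 lower (23 and 4 without native replicate 5), with a median difference of 0.86. The type I collagen gene Col1a1 had 13.29, 11.82, 12.58, 12.45 and 12.85 in day 14 isografts, against 10.19, 10.57, 10.19, 11.79 and 10.98 in native tracheas (difference 1.85 ± 0.31, adjusted p = 6.82e-05). Isograft replicate 2 was barely above native replicate 4. The other tested probe set of Col1a1 did not rise, with a difference of -0.16. Col3a1, of type III collagen, averaged 14.01 ± 0.38 in day 14 isografts and 12.75 ± 0.4 in native tracheas (SD, n = 5 each; difference 1.27 ± 0.19, adjusted p = 1.34e-05). Col5a2, which sets fibril diameter within type V collagen, was 4.62-fold higher (adjusted p = 1.42e-07), and Thbs2, a matricellular thrombospondin, 3.95-fold higher (adjusted p = 2.48e-06). Mfap2, a microfibril glycoprotein, rose by 2.16 ± 0.41 (adjusted p = 0.000266), and Postn, periostin, by 1.55 ± 0.3 (adjusted p = 0.000321). Of the fallers, P4ha1, a collagen prolyl hydroxylase, decreased by 1.3 ± 0.35 (adjusted p = 0.00688). C1qtnf3, a secreted C1q-like protein outside the lists, had 8.56, 7.67, 8.64, 7.56 and 9.7 in day 14 isografts, against 3.65, 4.67, 3.73, 4.65 and 5.23 in native tracheas (16.4-fold higher, adjusted p = 6.48e-09).

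Matrix proteases and their inhibitors rose in 12 of 21 and fell in 1. After Mmp12 the largest was Mmp3, stromelysin, with 9.78, 8.65, 8.96, 8.43 and 9.58 in day 14 isografts, against 5.7, 5.97, 5.7, 4.44 and 4.92 in native tracheas (difference 3.73 ± 0.42, adjusted p = 9.95e-08). Adam12, a metalloprotease of mesenchymal cells, was 4.59-fold higher (adjusted p = 0.00011). Of 33 genes of TGF-beta, BMP and IGF signalling 10 rose and 1 fell (8 and 2 without native replicate 5). Igf2, a growth factor abundant in the fetus, had 8.41, 9.09, 9.26, 9.83 and 8.73 in day 14 isografts, against 6.89, 7, 6.85, 6.71 and 7.16 in native tracheas (difference 2.14 ± 0.41, adjusted p = 0.000318). The binding proteins Igfbp2 (4.2-fold, adjusted p = 0.0112) and Ltbp2 (3.97-fold, adjusted p = 3.61e-06) were also higher. Pdgfc, a growth factor for mesenchyme, rose 2.21-fold (adjusted p = 0.000719). Basement membrane genes rose in 5 of 16 with none lower, and EGF, FGF and HGF signalling genes were higher in 3 of 13 and lower in 2.

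Contractile genes of smooth muscle fell while a pericyte receptor rose. Of 16 smooth muscle and myofibroblast genes 11 were lower and 2 higher, with a median of -1.17. Cnn1, calponin, had 5.4, 5.3, 4.69, 8.04 and 6.61 in day 14 isografts, against 9.55, 9.34, 8.67, 9.41 and 7.39 in native tracheas. Isograft replicate 4, at 8.04, lay above native replicate 5 (difference -2.86 ± 0.52, adjusted p = 0.000187). The enteric actin Actg2 had 6.07, 6.35, 4.49, 7.17 and 6.64 in day 14 isografts, against 8.71, 8.92, 8.49, 8.35 and 7.46 in native tracheas and did not overlap (difference -2.24 ± 0.44, adjusted p = 0.000378). Acta2, the vascular smooth muscle actin, was 1.99-fold lower (adjusted p = 0.00177), and desmin, Des, 4.16-fold lower (adjusted p = 0.0132). Myh11, the smooth muscle myosin, fell by 1.72 ± 0.56 (adjusted p = 0.0196). That call was lost without isograft replicate 2 or 3 or native replicate 1 or 4, with adjusted p up to 0.084, and with the 10 arrays alone. Pdgfrb, the PDGF receptor of pericytes and fibroblasts, had 9.56, 9.2, 9.28, 9.53 and 9.68 in day 14 isografts, against 7.2, 7.88, 7.78, 7.98 and 8.06 in native tracheas (difference 1.67 ± 0.21, adjusted p = 7.05e-07). Outside the lists, Myl4, an atrial and embryonic myosin light chain, was 12.9-fold higher with no overlap (adjusted p = 0.000298).

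Few cartilage genes were called, 2 of 27 higher (4 without native replicate 5) and 2 lower. Col2a1 (difference 0.47 ± 0.56, adjusted p = 0.542) and the proteoglycan Acan (difference -0.52 ± 0.6, adjusted p = 0.529) were not called. Matn4, a matrilin of cartilage and other matrices, had 6.93, 7.02, 7.21, 7.39 and 7.36 in day 14 isografts, against 4.25, 3.93, 4.87, 4.6 and 4.49 in native tracheas (difference 2.76 ± 0.49, adjusted p = 0.000127). Prg4, the joint lubricant lubricin, fell by 1.88 ± 0.36 (adjusted p = 0.000286). Sox9, the chondrocyte transcription factor also found in glands, read 7.05 to 7.35 in day 14 isografts and 7.37 to 8.73 in native tracheas (difference -0.87 ± 0.32, adjusted p = 0.0412). The Sox9 call was lost without any single isograft array or without native replicate 1, 2 or 4 (adjusted p up to 0.129), and under the other scalings.

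Endothelial genes rose in 6 of 27 and fell in 1 (5 and 2 without native replicate 5). Aplnr, the apelin receptor of growing vessels, had 9.98, 10.03, 9.8, 10.11 and 9.99 in day 14 isografts, against 6.32, 7.25, 7.62, 8.32 and 9.11 in native tracheas (difference 2.26 ± 0.31, adjusted p = 3.4e-06). Angpt2, which loosens vessels during sprouting, was 4.08-fold higher (adjusted p = 3.26e-07). Vegfa, the vascular growth factor, was 2.03-fold lower (adjusted p = 0.0149). Pecam1, CD31, varied from 3.76 to 6.61 in day 14 isografts and 2.99 to 6.62 in native tracheas and was not called (adjusted p = 0.878).

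Nerve genes as a list showed 2 of 12 higher (1 without native replicate 5) and 1 lower, and 16 of 28 were below the filter. Ngfr, a receptor raised in Schwann cells that have lost their axon, rose by 0.76 ± 0.18 (adjusted p = 0.00289). Mbp, a major protein of myelin, was chosen for mention after its values were seen, because its probe sets disagreed. Its brightest probe set read 6.46 to 7.66 in day 14 isografts and 6.53 to 7.53 in native tracheas (difference 0.14 ± 0.22, adjusted p = 0.657). The other 3 tested probe sets fell, to means of 3.67, 3.42 and 2.71 in day 14 isografts, against 8.86, 6.02 and 6.67 in native tracheas. Their differences were -5.19 ± 0.63, -2.6 ± 0.3 and -3.96 ± 0.4 (adjusted p = 3.26e-07, 1.12e-07 and 1.26e-08), and in none did the groups overlap. At day 25 the means were 4.04, 3.17 and 2.64.

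Genes of mitochondrial energy metabolism fell broadly. Of 58 oxidative phosphorylation genes 37 were lower and none higher, and every one of the 58 differences was below 0 (-3.56 to -0.19, median -0.89). The count was 30, 26 and 29 after quantile normalization, median centring and reference gene centring. The mean level of the list was 9.48, 9.45, 9.9, 9.83 and 8.99 in day 14 isografts, against 10.39, 10.3, 10.41, 10.83 and 10.61 in native tracheas, without overlap. Ndufc1, a complex I subunit, had 6.51, 7.85, 7.94, 8.56 and 6.81 in day 14 isografts, against 9.23, 9.27, 9, 9.7 and 8.97 in native tracheas (difference -1.7 ± 0.35, adjusted p = 0.000616). Cox7a1, the muscle and brown fat form of a cytochrome oxidase subunit, was 11.8-fold lower (adjusted p = 0.0111). Of 33 genes of fatty acid oxidation and the citrate cycle 23 were lower and 1 higher (median -1.45). Dld, the shared dehydrogenase of pyruvate and 2-oxoglutarate oxidation, had 6.48, 6.16, 7.17, 5.88 and 6.68 in day 14 isografts, against 8.83, 8.66, 8.47, 9.31 and 8.29 in native tracheas (difference -2.24 ± 0.52, adjusted p = 0.00228). Hadha, of mitochondrial beta-oxidation, was 4.6-fold lower (adjusted p = 0.00468), Pdk4, which shuts off glucose oxidation, 7.15-fold lower (adjusted p = 0.0123), and the fatty acid carrier Fabp3 12.4-fold lower (adjusted p = 0.00179).

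Lipid synthesis fell as well, with 12 of 23 sterol and fatty acid synthesis genes lower and 1 higher (median -1). Elovl6, a fatty acid elongase, had 6.67, 6.54, 9.13, 7.08 and 5.61 in day 14 isografts, against 9.38, 10.22, 10.26, 9.93 and 9.5 in native tracheas (difference -2.85 ± 0.81, adjusted p = 0.00966). Me1, the cytosolic malic enzyme, was 5.78-fold lower (adjusted p = 0.00147). Mlxipl, the glucose-responsive factor ChREBP, had 4.03, 3.57, 5.18, 4.93 and 3.01 in day 14 isografts, against 8.09, 7.94, 7.84, 7.92 and 7.26 in native tracheas (difference -3.67 ± 0.76, adjusted p = 0.000759).

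Markers of attached tissue are given beside these metabolic genes. Ucp1, the uncoupling protein that defines brown fat, had 4.23, 4.48, 9.3, 6.19 and 4.22 in day 14 isografts, against 11.07, 10.65, 11.59, 11.67 and 9.75 in native tracheas. Isograft replicate 3 came close to native replicate 5, and 3 isograft arrays were below 5 (difference -5.26 ± 1.59, adjusted p = 0.0137). Of 22 tested fat genes 4 were lower and none higher (median -1.51), so the share lower was near the 17.9% of all genes. With the 10 arrays alone 10 were lower. The mean level of the fat genes was 9.31, 8.34, 10.25, 9.57 and 7.18 in day 14 isografts, against 10.78, 10.65, 10.6, 10.94 and 9.96 in native tracheas. Adiponectin, Adipoq, made by all fat cells, read 9.58 to 12.34 in day 14 isografts and 10.72 to 12.08 in native tracheas (adjusted p = 0.742). Skeletal muscle genes had a median of -1.28, and 2 of 28 were called lower and 1 higher (1 lower and none higher without native replicate 5). Both shares were below the 17.9% and 11.0% of all genes. The mean level of the skeletal muscle genes was 7.54, 8.15, 7.37, 8.48 and 4.91 in day 14 isografts, against 7.26, 7.06, 8.78, 9.41 and 11.02 in native tracheas. The groups overlapped, with native replicate 5 highest and isograft replicate 5 lowest. Acta1 (difference -2.52 ± 1.52, adjusted p = 0.21) and the creatine kinase Ckm (difference -2.26 ± 1.07, adjusted p = 0.108) were not called. Apobec2, a deaminase relative of muscle, was 12.3-fold lower without overlap (adjusted p = 0.00245). The part of brown fat and of skeletal muscle in the metabolic falls was not tested.

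Thyroid and parathyroid genes fell in 4 of 7. The list level was 6.83 to 8.48 in day 14 isografts and 9.1 to 10.07 in native tracheas. Tg fell by 2.08 ± 0.55 (adjusted p = 0.00588), and isograft replicate 5 was lowest at 9.26. Dio1, a deiodinase that activates thyroid hormone, was 12.1-fold lower (adjusted p = 7.19e-08), Iyd, which recycles iodide, 8.51-fold lower (adjusted p = 1.82e-05), and the endocrine granule protein Chga 5.58-fold lower (adjusted p = 0.00127). Pth was not called (difference -1.15 ± 0.86, adjusted p = 0.316), although it was with the 10 arrays alone. The skin list had 27 members, of which 2 were tested and neither called. Krt10 read 6.02 to 6.31 in day 14 isografts and 5.48 to 7.29 in native tracheas.

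**Figure D4:**
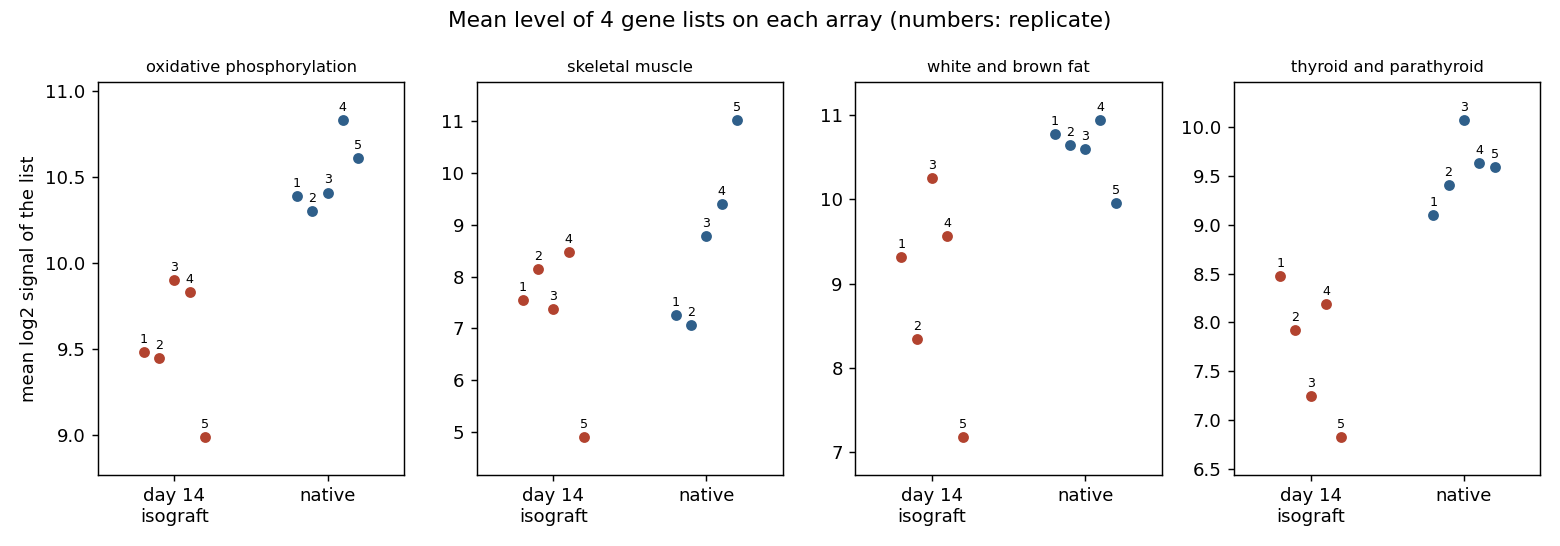
Mean log2 signal of the tested genes of 4 lists on each array, day 14 isografts (red, left) and native tracheas (blue, right), with replicate numbers; each panel has its own axis. Oxidative phosphorylation and thyroid levels do not overlap, fat overlaps by 1 isograft array, and skeletal muscle overlaps with native replicate 5 highest and isograft replicate 5 lowest.

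Immediate early and stress genes were lower in 12 of 26 (15 without native replicate 5) and higher in none, with large differences among native arrays. Hspa1a, an inducible heat shock protein with the near-identical copy Hspa1b, had 6.59, 7.58, 6.85, 7.62 and 6.68 in day 14 isografts, against 12.3, 11.99, 11.43, 7.16 and 8.1 in native tracheas. Native replicates 1 to 3 were over 3 log2 units above replicates 4 and 5, which were close to the isografts (difference -3.13 ± 0.62, adjusted p = 0.000423). The immediate early receptor Nr4a1 had 6.23, 6.22, 6.17, 6.13 and 6.43 in day 14 isografts, against 10.79, 9.03, 9.87, 7.03 and 6.91 in native tracheas (difference -2.49 ± 0.47, adjusted p = 0.000306). It showed the same split among native arrays, while the isografts lay close together. With the 10 arrays alone 7 of the 26 were called lower. Glucocorticoid-responsive genes were lower in 7 of 19 and higher in 1, among them Tsc22d3, GILZ, with 6.96, 5.76, 6.11, 7.44 and 6.84 in day 14 isografts, against 10.24, 9.41, 8.65, 8.45 and 7.42 in native tracheas (difference -2.22 ± 0.45, adjusted p = 0.000567). The handling of native tracheas before RNA isolation is not given in the sources used here. The clock list had 2 of 11 lower and 1 higher. Arntl, the clock activator BMAL1, was 2.67-fold lower (adjusted p = 0.0117). Its counterphase output gene Dbp was 7.18-fold higher (adjusted p = 0.014), a call lost without native replicate 1 (adjusted p = 0.0551). The hour of sampling is not given either.

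Iron and heme genes split, 4 of 17 higher and 5 lower. The exporter ferroportin, Slc40a1, had 8.25, 7.83, 7.48, 6.99 and 8.56 in day 14 isografts, against 4.42, 5.75, 6.07, 5.42 and 6.19 in native tracheas (difference 2.25 ± 0.34, adjusted p = 1.34e-05), and the phagosomal metal transporter Slc11a1 was 4.68-fold higher (adjusted p = 5.19e-07). Both are known from macrophages. Of 25 tested cell cycle genes, out of 56 on the array, 7 were higher and none lower, and 2 with the 10 arrays alone. Cdk1, the mitotic kinase, had 5.44, 5.94, 6.71, 6.18 and 5.82 in day 14 isografts, against 4.75, 3.49, 6.19, 4.7 and 5.15 in native tracheas. The groups overlapped, and the call (difference 1.16 ± 0.4, adjusted p = 0.0295) was lost without isograft replicate 3 or native replicate 1, 2 or 4 (adjusted p up to 0.124). Top2a was below the filter at 3.5 to 4.76 in day 14 isografts and 2.49 to 5.86 in native tracheas. Hypoxia and glycolysis genes were lower in 10 of 26 and higher in 3, and 6 were lower after quantile normalization or median centring. Hexokinase Hk2 fell by 1.56 ± 0.36 (adjusted p = 0.002), and the stress-induced Ndrg1 rose by 1.28 ± 0.29 (adjusted p = 0.00197) but was not called when its probe sets were averaged.

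The day 4 isografts place these values in time. Day 14 and day 4 isografts differed in 1824 of 7531 genes (24.2%), 943 higher (12.5%) and 881 lower (11.7%) at day 14. The filter read the day 14 and native arrays alone, so genes high mainly at day 4 could be left out. Top2a, with a mean of 8.06 at day 4 and 4.15 at day 14, was left out in this way. With a filter over all 35 arrays 3008 probe sets were called between these days, against 2737. This comparison shares the day 14 arrays with the comparison against native trachea, so the values are given side by side. All 17 tested ciliated genes were higher at day 14 than at day 4, with a median difference of 2.29. Another 6 of the 23 on the array were below the filter. The list level at day 4 was 5.08 to 5.18, near the filter level. Members were kept for their level at day 14 or in native tracheas, so the count is partly set by the filter. Foxj1 was 4.95 ± 0.09 at day 4, 7.3 ± 0.49 at day 14 and 7.73 ± 0.62 at day 25 (SD, n = 5 each), against 7.42 ± 1.51 in native tracheas, and the day 14 minus day 4 difference was 2.34 ± 0.45, adjusted p = 0.000303. Of 19 secretory genes 12 were higher than at day 4 and none lower. Bpifa1 was 12.39 ± 0.47 at day 4, 14.61 ± 0.14 at day 14 and 14.7 ± 0.3 at day 25 (day 14 minus day 4, 2.22 ± 0.43, adjusted p = 0.00029). Dmbt1 was 5.44 ± 0.98 at day 4, 11 ± 0.66 at day 14 and 11.19 ± 1.66 at day 25 (day 14 minus day 4, 5.56 ± 0.49, adjusted p = 2.76e-09). Its day 14 level lay between the day 4 level and the native 13.02.

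Gland genes were divided by this comparison, with 6 of 15 higher than at day 4. Lipf was 2.45 ± 0.69 at day 4, 8.4 ± 1.31 at day 14 and 9.31 ± 1.19 at day 25 (day 14 minus day 4, 5.95 ± 0.44, adjusted p = 7.83e-11). Dcpp1, at 5.68 ± 0.84 at day 4, 6.73 ± 0.97 at day 14 and 8.8 ± 1.6 at day 25, was not called between day 14 and day 4 (adjusted p = 0.126), nor was Dcpp3 (3.34 ± 0.29 at day 4, adjusted p = 0.85). Sftpa1, outside the gland list, stayed at background, with a mean of 2.31 at day 4 and 2.28 at day 25. Tff2 was 1.1 ± 0.32 higher than at day 4 (adjusted p = 0.0128). Pth, the parathyroid hormone, was 4.3 ± 2.27 at day 4, 11.63 ± 0.82 at day 14 and 11.93 ± 1.76 at day 25 (day 14 minus day 4, 7.33 ± 0.86, adjusted p = 2.59e-07). The parathyroid glands lie beside the trachea and are not part of it.

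Leukocyte genes took several courses. Neutrophil genes were lower than at day 4 in 6 of 9 (median -1.69). S100a8 was 10.6 ± 0.45 at day 4, 8.71 ± 1.67 at day 14 and 9.63 ± 1.69 at day 25 (day 14 minus day 4, -1.88 ± 0.66, adjusted p = 0.0375). Slfn4 was 11.07 ± 0.4 at day 4, 8.16 ± 0.77 at day 14 and 8.82 ± 1.96 at day 25 (day 14 minus day 4, -2.92 ± 0.54, adjusted p = 0.000186). Macrophage genes moved less, 8 of 28 lower and 2 higher. Gpnmb was 7.14 ± 0.34 at day 4, 8.93 ± 0.27 at day 14 and 9.3 ± 0.88 at day 25 (day 14 minus day 4, 1.79 ± 0.38, adjusted p = 0.000785), and Itgax 5.41 ± 0.51 at day 4, 7.68 ± 0.22 at day 14 and 7.8 ± 0.92 at day 25 (day 14 minus day 4, 2.27 ± 0.38, adjusted p = 5.25e-05), both higher at day 14. Mrc1 was lower at day 14 (-1.38 ± 0.27, adjusted p = 0.000424), and Ctss differed by -0.04 ± 0.22, adjusted p = 0.918. Cell cycle genes were lower in 23 of 25 (median -1.81), with Cdk1 at 9.34 ± 0.27 at day 4, 6.02 ± 0.47 at day 14 and 6.22 ± 1.03 at day 25 (day 14 minus day 4, -3.32 ± 0.4, adjusted p = 4.47e-07). Hypoxia and glycolysis genes were lower in 17 of 26.

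None of the 58 oxidative phosphorylation genes was called between day 14 and day 4 (median 0.02), and the list level at day 4 was 9.23 to 9.76. Ucp1 was 5.42 ± 2.63 at day 4, 5.69 ± 2.18 at day 14 and 5.32 ± 1.69 at day 25. Of the matrix genes 10 of 43 were higher and 13 lower than at day 4. Col1a1 was 12.66 ± 0.32 at day 4, 12.6 ± 0.54 at day 14 and 12.6 ± 0.73 at day 25, and Matn4 4.18 ± 0.91 at day 4, 7.18 ± 0.2 at day 14 and 6.3 ± 1.12 at day 25 (day 14 minus day 4, 3.01 ± 0.49, adjusted p = 3.87e-05).

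Against day 25 isografts no probe set was called by limma. There were 803 of 12108 at an unadjusted p under 0.05, and the smallest adjusted p was 0.335. Leaving out day 25 replicate 1, 2 or 5 gave 2, 1 and 8 called probe sets. Replicate 5 of day 25 had the lowest correlation with its group of the 20 native and isograft arrays (0.849). For Dcpp1 the day 14 minus day 25 difference was -2.07 ± 0.49 (adjusted p = 0.568).

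**Figure D5:**
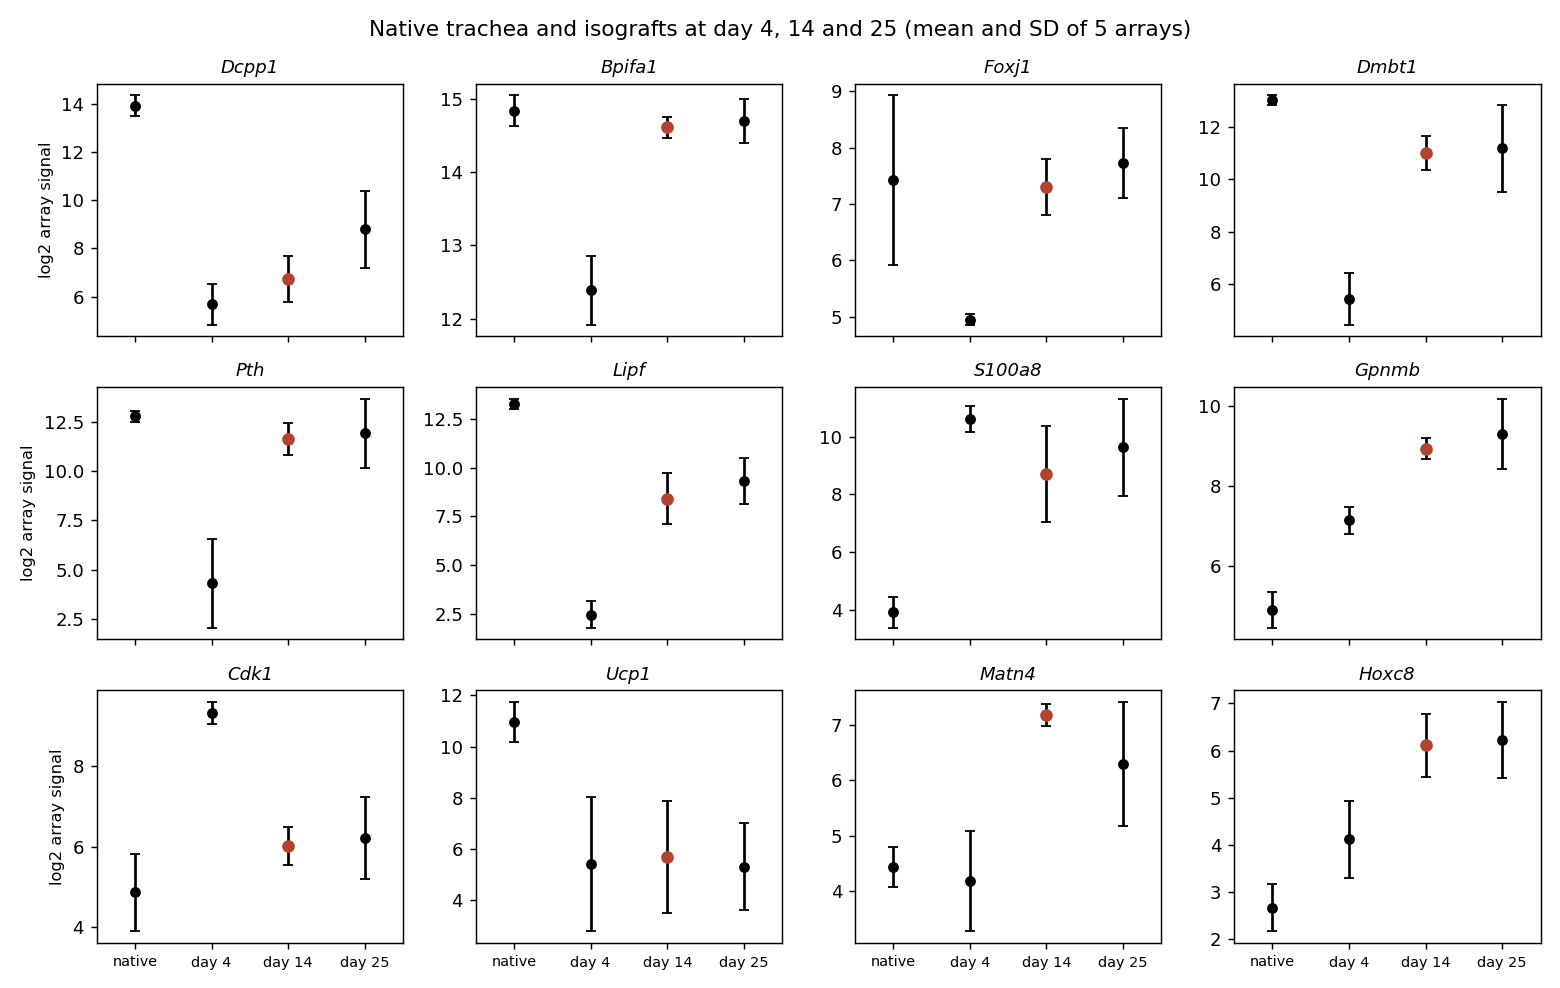
Mean log2 array signal with SD (5 arrays each) of 12 genes in native trachea and in isografts at day 4, 14 (red) and 25; each panel has its own axis. Bpifa1 and Foxj1 are near native at day 14, Dcpp1 and Ucp1 remain far below it, and S100a8, Gpnmb and Hoxc8 remain above it.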

How the data were processed

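Tracheal total RNA was measured on Affymetrix arrays, per the labels as biotin-labelled cRNA. The deposited values are log2 intensities per probe set, made by the authors with GCRMA 1.1.3 per the submitters' processing notes; no scanner files or detection calls were used here. Each column carries its array's title. From these values, group means of all 35 arrays in 7 groups were estimated by lmFit and eBayes of limma 3.58.1 under R 4.3.3, which left 28 residual degrees of freedom, and day 14 isografts were compared with native tracheas, day 4 and day 25 isografts. The number of arrays limits the precision.

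Of 22690 probe sets 64 controls were left out, and 12108 passed the filter of log2 5 in at least 5 of the 10 arrays. Of those 11112 named 1 gene, 434 several and 562 none in the platform annotation; the last 2 kinds were counted but not named. Probe sets were called at a Benjamini-Hochberg adjusted p under 0.05 over all probe sets kept. Each gene took the values of its brightest probe set, by the mean of the 10 arrays. Of 2444 genes with several tested probe sets, 35 had probe sets called in opposite directions.

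The comparison, the 46 gene lists (1185 of 1353 entries found on the array) and the named genes were chosen with earlier results of these data known, and nothing is supported by that choice. Named were the 15 largest rises and 15 largest falls without overlap, the 3 largest called rises and falls of each list, and a set of cell type markers, of which those needed to describe each group are given. The fit was tested on simulated data. Alternatives were other filters, scalings, variance settings and thresholds, the 10 arrays alone, a replicate block, averaged probe sets per gene, and the removal of single arrays.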

Additional observations from a re-analysis of the deposited data

Results flagged for a closer look

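In 312 groups of 5 arrays, covering 156 genes, 22 arrays stood apart from their group by Dixon's criterion for 5 values (gap over range above 0.71). Chance gives about 1 in 20 groups, and 8 of the 22 were native replicate 5. For that array the low values were Tekt1 at 4.97, Rsph1 at 4.62, Slc5a8 at 4.23, Gsta3 at 7.51, C1qa at 7.01 and Cd74 at 9.21, and the high values Lipf at 13.75 and Gja1 at 11.44. Native replicate 4 was high for Mfap2 at 6.62. Isograft replicate 1 was high for Slc6a15 at 4.2 and Cftr at 5.73, and low for Lcn2 at 5.85, Trp63 at 5.69 and Vegfa at 7.37. Isograft replicate 2 was high for Slc6a14 at 9.37, and replicate 3 low for Krt10 at 6.02. Isograft replicate 4 was low for Lyz1 at 13.33 and Ctss at 12.17, and high for Prss8 at 6.95, Scnn1b at 4.71 and Angpt2 at 6.51. Isograft replicate 5 was high for Il7r at 7.72.

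In 3 of the 156 genes the isografts were called different from native trachea in opposite directions at day 14 and at day 4, and the difference between the days was called too (limma). Rsph1 was 1.4 above native at day 14 and -1.92 from it at day 4, a day 14 minus day 4 difference of 3.31 (adjusted p = 5.99e-07). Hdc, histidine decarboxylase, was 1.39 above native at day 14 and -1.55 from it at day 4, a difference of 2.94 (adjusted p = 3.87e-05). The Hdc call against native was lost without any of isograft replicates 3, 4 or 5 or native replicates 1, 4 or 5 (adjusted p up to 0.0863). Prg4 was -1.88 from native at day 14 and 1.42 above it at day 4, a difference of -3.3 (adjusted p = 6.78e-08).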

How the results depend on the processing

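For the comparison with native trachea, leaving out each array in turn gave 2545 to 4067 called probe sets, 977 to 1504 higher and 1568 to 2563 lower, and 1582 to 2481 called genes. For the comparison with day 4 it gave 2156 to 2809 and with day 25 0 to 8 (removals of day 4 and day 25 arrays were added after seeing the data). Without the level filter 6154 probe sets were called, 3472 higher, and 3444 genes. With a filter of log2 7 the counts were 2019, 739 higher and 1280 lower, 1329 genes, and 1720 against day 4. An adjusted p under 0.01 gave 1754, 719, 1035, 1077 and 1506 for the same quantities, and a minimum log2 difference of 1 gave 1499, 602, 897, 913 and 1206. Median centring gave 1417 lower, and reference gene centring 4330 called against day 4.

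A replicate block on the 10 arrays called 2217 probe sets, 845 higher and 1372 lower, and 1333 genes, against 2705 on the same arrays with no block. The replicate numbers did not pair the arrays, since deviations of same-numbered arrays correlated at -0.012, -0.094, 0.056, 0.052 and -0.179, and only replicate 3 correlated best with its own number. Of 3411 alternative values for 150 genes, 3263 kept their side of the threshold, 142 lost the call, 5 gained it and 1 reversed. Differences not called in either setting could change sign and still count among the 3263. With the mean of its probe sets Mbp differed by -2.9 from native (adjusted p = 2.5e-08) and by -0.43 from day 4 (adjusted p = 0.333), since 3 of its 4 tested probe sets fell. Under the filters and thresholds, the number of probe sets tested or the threshold itself differed; for the scalings, the block and the removal of day 25 arrays the cause was not tested. No detection calls were used, so the level filter stands in for signal over background.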

Other observations

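Hox genes are expressed by position along the body axis, and 8 of them passed the filter with 9 probe sets. They were looked at after the values of Hoxc8 were seen. Hoxc8 had 7.12, 5.92, 6.35, 5.81 and 5.35 in day 14 isografts, against 2.84, 2.06, 2.24, 2.98 and 3.22 in native tracheas. The difference was 3.44 ± 0.44 on the log2 scale (limma, adjusted p = 8.48e-07), with native arrays at background. At day 4 Hoxc8 averaged 4.12 and at day 25 6.22, and the day 14 minus day 4 difference was 1.99 (adjusted p = 0.00127). Hoxc4 was higher by 1.1 ± 0.26 (adjusted p = 0.00232) and Hoxd8 by 0.7 ± 0.27 (adjusted p = 0.0462), both with overlapping groups. Hoxb2 differed by -1.03 ± 0.32 (adjusted p = 0.0168). Hoxa3, Hoxa5, Hoxb3 and Hoxb4 were not called, with differences of -0.17 to 0.08.

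Among sex-linked genes 1 of 4 was called higher, and among the 24 reference genes used for scaling 3 were higher and 3 lower. Of 5 tested mast cell genes 2 were lower and 1 was higher (3 and none without native replicate 5). Of 5 tested B and plasma cell genes 1 was higher against native trachea, while 4 were higher at day 14 than at day 4. Ighm averaged 3.46 at day 4, 6.48 at day 14 and 7.16 at day 25, against 6.25 in native tracheas (day 14 minus day 4, adjusted p = 0.00407).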
